A study of Drosophila melanogaster with 3 samples.

Results

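The vacuolar proton pump (V-ATPase) subunit genes of Drosophila melanogaster were examined for places where the protein CG2712 was found in embryos. The members were chosen by name, as the protein-coding genes of Ensembl release 115 whose symbol begins with Vha, and numbered 33 of 13968. They were singled out as a set, and divided into subunits with 1 gene and subunits with several, with earlier promoter peak counts of these data known. The counts of genes with a promoter peak are therefore a description and carry no test. There was 1 group of 3 biological replicates, each a chromatin immunoprecipitation with sequencing (ChIP-seq) on whole embryos of both sexes, 0 to 16 hours old. The embryos came from 1 transgenic line that stably expresses CG2712 with green fluorescent protein (GFP) at its C terminus. An antibody against GFP was used. All samples carried the tagged protein, so no sample group without it was compared. The labels do not say which promoter drives the fusion, and a whole embryo mixes all tissues.

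The V-ATPase uses the energy of ATP to pump protons into endosomes, lysosomes and secretory vesicles, and across the plasma membrane of some epithelia. Its V1 sector, on the cytosolic side, splits ATP with subunits A and B, which form a ring around an axle of D and F. Subunits C, E, G and H make the stalks and control how V1 docks. Its V0 sector, in the membrane, carries protons through subunit a and a rotating ring of c and c'' subunits, with d joining ring and axle, e a small membrane protein and Ac45 an accessory protein. In flies several subunits are encoded by more than one gene, and some copies are used mainly in particular tissues.

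A gene was counted when any of its annotated transcript starts had a peak summit no more than 500 bp away. The irreproducible discovery rate (IDR) measures how well peaks repeat, while every rank given below is by signal value, 1 being the strongest. In the list of peaks past the IDR threshold, 13 of 33 Vha genes (39.4%) had such a summit, against 4973 of 13968 protein-coding genes (35.6%). All 5 single-copy subunit genes had one, and 8 of 28 genes in paralog groups (28.6%). The share over all Vha genes was near that of all protein-coding genes. Of the 14 subunits, 10 had at least 1 gene with an IDR summit. The V1 sector had 6 of 13 genes, the V0 sector 7 of 18 and the Ac45 pair 0 of 2. Among the 9 subunits with several genes, 5 had at least 1 with an IDR summit and 4 had none, namely A, F, d and Ac45. In no subunit with several genes did every copy have one.

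**Figure D1:**
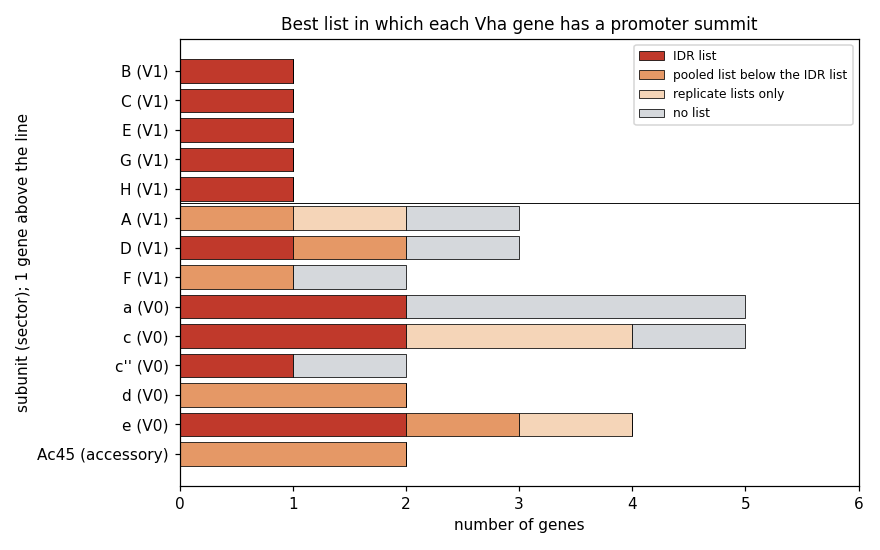
Number of genes (x axis) encoding each V-ATPase subunit (y axis), coloured by the best peak list that holds a promoter summit of the gene. The 5 single-copy subunits B, C, E, G and H are all in the IDR list, and the 28 paralog-group genes divide into 8 in the IDR list, 8 in the pooled list below it, 4 in replicate lists only and 8 in no list. Of all protein-coding genes, 13.6% are in the pooled list below the IDR list and 38% in no list.

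The same division was seen in each replicate. Taking as many of the strongest peaks of each replicate as the IDR list holds (9789), the 5 single-copy genes each had a promoter summit in all 3 replicates. Of the paralog-group genes 8, 9 and 10 of 28 did in replicates 1, 2 and 3 (mean 32.1% ± 3.57, SD, n = 3). Over all Vha genes the counts were 13, 14 and 15 of 33 (mean 42.4% ± 3.03), beside 35.4%, 34.4% and 36.9% of all protein-coding genes. The IDR list was made from these replicates, so the lists are not independent of each other. The lists hold no read totals, and the depth behind each is unknown.

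Vha44, the gene of subunit C, which helps to join V1 to V0, had the strongest peak of the family (2R, 16335938 to 16337113, build dm6). It ranked 15 of 9789 in the IDR list with a signal value of 8128, which is the authors' own value for the peak. Its ranks were 10, 46 and 14 in replicates 1, 2 and 3, and no other Vha gene was as high in any of them. The summit lay 43 bp upstream of the start of Vha44 and 80 bp upstream of Hmgs, a gene that is transcribed the other way.

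The remaining single-copy genes of V1 had peaks of middling rank. Vha26, for the stalk subunit E, ranked 1473, 3742 and 2979 in replicates 1, 2 and 3 (3R, 5591483 to 5591793, IDR rank 2514). VhaSFD, for the regulatory subunit H, ranked 4019, 3897 and 2638 (2L, 16727773 to 16727987, IDR rank 3720). These ranks overlapped, so the order of these genes was not fixed by the replicates. Vha55, for the nucleotide-binding subunit B, varied more, at 2109, 7767 and 4077 (3R, 12627746 to 12628027, IDR rank 4479). Vha13, for the stalk subunit G, was the weakest single-copy gene by median rank, at 6966, 7495 and 8129 (3R, 19644584 to 19645007, IDR rank 7598). The 8129 in replicate 3 belongs to a summit 138 bp downstream of the start, and the replicate 3 peak that overlaps this interval ranked 11762, outside the 9789 strongest. Of the 13 Vha genes with an IDR summit, its strongest summit was the farthest from a start, 410 bp upstream, with a further IDR summit (rank 9407) 68 bp upstream.

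The DNA under the summits of single-copy genes differed in composition. The stretches shown lie within 50 bp of the strongest IDR summit, are cut where an annotated exon begins and are read from RefSeq's copy of the dm6 assembly on the strand of the Vha gene. Vha55 lies at chr3R:12627830-12627920 (minus strand), VhaSFD at chr2L:16727827-16727914 (minus), Vha26 at chr3R:5591550-5591650 (plus) and Vha13 at chr3R:19644746-19644846 (minus). Capitals mark an exact match to TATCGATA, the element bound by the factor DREF. It was present in VhaSFD alone of these 4 stretches, and none of them held a match to the other sequences searched.
Vha55: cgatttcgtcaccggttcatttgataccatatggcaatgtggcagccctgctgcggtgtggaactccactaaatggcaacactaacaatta
VhaSFD: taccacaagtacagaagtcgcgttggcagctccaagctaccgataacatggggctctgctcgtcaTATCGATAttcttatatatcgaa
Vha26: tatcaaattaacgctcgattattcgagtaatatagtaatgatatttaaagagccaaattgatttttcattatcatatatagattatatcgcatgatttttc
Vha13: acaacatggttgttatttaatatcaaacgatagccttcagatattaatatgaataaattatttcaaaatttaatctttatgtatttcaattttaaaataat
The bases G and C made up 47.3% of the Vha55 stretch and 45.5% of that of VhaSFD, but 23.8% of that of Vha26 and 17.8% of that of Vha13.

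Among the paralog groups of V1, the rotor subunit D was the only one with an IDR summit at a gene. Vha36-1, for D, had ranks of 7819 and 4680 in replicates 2 and 3 and no promoter summit among the 30000 peaks of replicate 1 (2R, 15541154 to 15541577, IDR rank 6081). Its summit lay 69 bp upstream of Vha36-1 and 3 bp upstream of CG8187. The other D genes differed: Vha36-3 had only weak summits, at ranks 29493 and 28117 in replicates 2 and 3, and Vha36-2 had none in any list.

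Neither the catalytic subunit A nor the rotor subunit F had a gene in the IDR list. Vha68-2, for A, had a summit in each replicate, at ranks 11527, 23532 and 15017. All 3 were below the 9789 strongest. Vha68-1, a second gene for A, ranked 742 in replicate 1 (signal 404.8, summit 161 bp upstream, −log10 q 4.23) but had no promoter summit in replicates 2 and 3 or in the pooled list. Such a pattern was rare: of all protein-coding genes, 3 had a summit among the 1000 strongest peaks of replicate 1 and none in the pooled list or the other replicates. Vha68-3, the remaining A gene, had no summit in any list. Vha14-1, for F, ranked 11896, 11128 and 9783, so that in replicate 3 alone it was among the 9789 strongest peaks, and Vha14-2 was in no list.

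**Figure D2:**
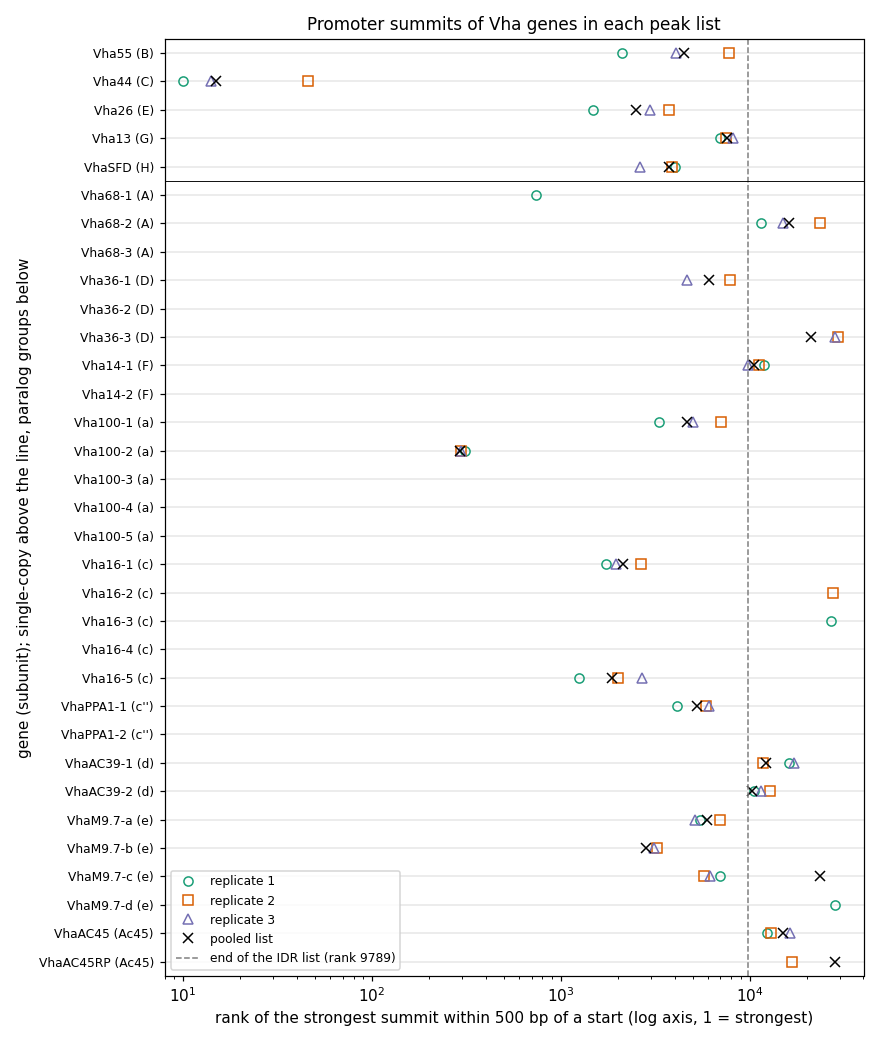
Rank of the strongest summit within 500 bp of a start (x axis, log scale, 1 is strongest) for each Vha gene (y axis, subunit in brackets) in replicates 1, 2 and 3 and in the pooled list, with the end of the IDR list at rank 9789 dashed. Vha44 is at the far left with ranks 10, 46 and 14, the single-copy genes are all left of the dashed line, and 8 genes have no mark because no list holds a promoter summit of them.

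In the V0 sector the strongest summit was that of Vha100-2, which encodes a form of the proton-carrying subunit a. Its ranks of 311, 298 and 296 differed little between replicates, and lay apart from those of every other Vha gene (3R, 18396990 to 18397459, IDR rank 294, signal 2500). The summit was 291 bp upstream of the downstream one of its 2 starts and 224 bp inside Vti1b, a SNARE gene that begins 67 bp from that start. A further IDR summit (rank 3512; 3R, 18393532 to 18393806) lay within Vha100-2, 3248 bp from the nearest of its starts. Vha100-1, the a subunit known from synaptic vesicles, ranked 3293, 7027 and 5031 (3R, 29130950 to 29131080, IDR rank 4631). Vha100-3, Vha100-4, which is used in acid-secreting cells of the midgut, and Vha100-5 had no promoter summit in any of the 5 lists.

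The proteolipid ring showed the same split between copies. Vha16-1, for the ring subunit c, ranked 1726, 2643 and 1959 (2R, 6633018 to 6633497, IDR rank 2141) and had a second IDR summit in the same interval (rank 6150). Another IDR peak lay inside the gene, 1717 bp from a start (rank 5689). Vha16-5, also for c, ranked 1245, 2002 and 2686 (2L, 10737138 to 10737473, IDR rank 1871). The ranks of Vha16-1 and Vha16-5 overlapped between replicates. Vha16-3 was listed only in replicate 1 at rank 26757 (−log10 q 0.143) and Vha16-2 only in replicate 2 at rank 27525 (0.579), both close to the end of lists of 30000 peaks. Vha16-4 was in none.

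For the ring subunit c'', VhaPPA1-1 ranked 4107, 5833 and 6104 (IDR rank 5233; 3R, 14903954 to 14904377), and VhaPPA1-2, which lies downstream on the same strand, was in no list. VhaAC39-1 and VhaAC39-2, for d, were in every replicate list but below the 9789 strongest. VhaAC39-1 ranked 16154, 11697 and 17139, and VhaAC39-2 ranked 10481, 12837 and 11481. Of the Ac45 pair, VhaAC45 ranked 12343, 12962 and 16278, which overlapped the ranks of both d genes, and VhaAC45RP was found in replicate 2 alone among the replicates (rank 16836).

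The small membrane subunit e has 4 genes, each with a promoter summit in at least 1 list, and 2 of them were in the IDR list. VhaM9.7-a ranked 5440, 6953 and 5154 (3L, 4262384 to 4262807, IDR rank 5919). VhaM9.7-b ranked 3223 and 3100 in replicates 2 and 3 and had no summit in the list of replicate 1 (3L, 21539408 to 21539687, IDR rank 2836). VhaM9.7-d was listed only in replicate 1, at rank 28264.

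VhaM9.7-c stood high in each replicate list but low in the pooled one. It had ranks of 6965, 5716 and 6168 in replicates 1, 2 and 3, with summits 9, 26 and 71 bp upstream of its start. These placed it among the 9789 strongest peaks of every replicate. In the pooled list its rank was 23600 (−log10 q 0.531), from a summit 221 bp upstream, so it is absent from the IDR list. Of 3733 protein-coding genes with a summit among the 9789 strongest peaks of all 3 replicates, 49 had no IDR summit, and VhaM9.7-c was the 1 Vha gene among them. Why the pooled list differs was not tested. On the replicate lists alone, 12 of 33 Vha genes had a summit among the strongest peaks of all 3, beside 26.7% of protein-coding genes. The 12 were VhaM9.7-c and the 13 with an IDR summit less Vha36-1 and VhaM9.7-b. The opposite case, an IDR summit with none in the whole list of replicate 1, held for those 2 genes and for 290 of the 4973 genes in all (5.83%).

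Of the 20 Vha genes with no IDR summit, 8 were in the pooled list below the IDR list, 4 in 1 replicate list only and 8 in no list. Over all protein-coding genes, 1905 (13.6%) were in the pooled list below the IDR list and 5309 (38%) in no list. A list shows where a peak was called and cannot show that the protein was absent. Members closest to the end of the IDR list were Vha13 (rank 7598 of 9789) inside it, and VhaAC39-2 (rank 10220 of the pooled list) and Vha14-1 (10492) outside it. Closest to the limit of 500 bp, the strongest IDR summit of Vha13 lay at 410 bp and an IDR summit of rank 336 lay 887 bp from the start of Vha14-1. In replicate 2 the strongest summit of Vha13 lay nearer the limit, 478 bp upstream. It lay 129 bp upstream in replicate 1 and 138 bp downstream in replicate 3.

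Strongest summits mostly sat upstream of the nearest start of the Vha gene. At Vha100-2 that start was the downstream one of 2, and the summit lay inside the gene. The strongest IDR summit was upstream of the nearest start of the gene in 13 of 13 members, beside 4370 of 4973 of all protein-coding genes with one (87.9%). In replicate 1 the strongest summit was upstream in 11 of 11 of these members with a summit, in replicate 2 in 12 of 13 (VhaSFD lay 42 bp downstream) and in replicate 3 in 12 of 13 (Vha13 lay 138 bp downstream). The median distance in the IDR list was 127 bp (38 to 410), beside 129 bp for all protein-coding genes, so position relative to the start was much as elsewhere. It was 43 bp for the 5 single-copy genes and 148 bp for the 8 of the paralog groups, and the 2 ranges overlapped (38 to 410 and 69 to 291).

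Most of these summits lay close to the start of a neighbour. In 10 of 13 members the strongest summit was also within 500 bp of the start of another protein-coding gene, beside 2710 of 4973 in all (54.5%). The exceptions were VhaSFD, Vha16-1 and VhaPPA1-1. Neighbours included Snx3, a sorting nexin gene 202 bp from Vha55, noi, a splicing factor gene 304 bp from Vha26, Nup58, a nuclear pore gene 640 bp from Vha13, and COX8, for a subunit of cytochrome c oxidase, 415 bp from VhaM9.7-b. The strongest summit was nearest to the start of the Vha gene itself in 6 of 13 members, beside 3582 of 4973 genes in all (72%). For Vha16-5 it lay 16 bp from CG12299 and 286 bp from Vha16-5, and for Vha36-1 it lay 3 bp from CG8187.

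**Figure D3:**
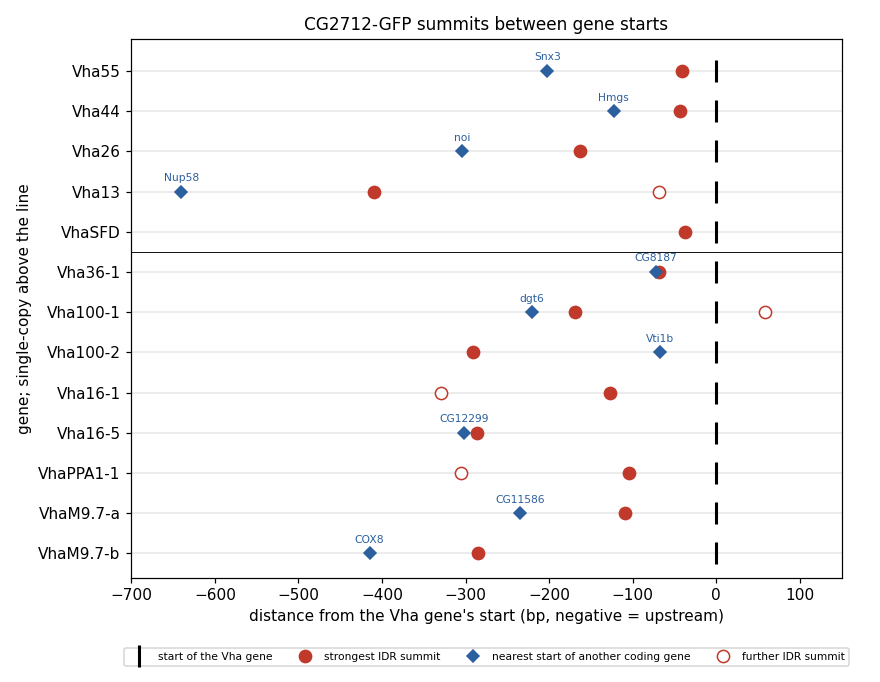
Position of IDR summits relative to the start of the Vha gene nearest to its strongest summit (x axis, bp, negative is upstream), for the 13 members with an IDR summit (y axis), with the nearest start of another protein-coding gene whose start lies within 500 bp of that summit. The strongest summits lie 38 to 410 bp upstream, and in 10 members another gene starts on the far side of the summit or close by; the open mark right of 0 at Vha100-1 is 16 bp upstream of a second start of that gene.

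When each summit was given only to the protein-coding gene with the nearest start, 8 of 33 Vha genes kept one (24.2%), beside 26.8% of all protein-coding genes. The genes lost were Vha26, Vha36-1, Vha100-2, Vha16-5 and VhaM9.7-b, so that 4 of 5 single-copy and 4 of 28 paralog-group genes were left. Genes with another protein-coding start within 500 bp of one of their own more often had a summit, but the counting builds in part of this. A summit counts for every gene with a start within 500 bp, so such genes also collect summits of their neighbours. All the Vha genes lost above have such a neighbour. Of 13 Vha genes with another protein-coding start within 500 bp of one of their own, 9 had an IDR summit (69.2%), and of the 20 others 4 did (20%). The shares over all protein-coding genes were 60.7% of 4309 and 24.4% of 9659. Of the 5 single-copy genes 3 have such a neighbour, and of the 28 paralog-group genes 10 do. The part of this arrangement in the difference between single-copy genes and paralog groups was not tested. With such a neighbour, 3 of 3 single-copy genes and 6 of 10 paralog-group genes had an IDR summit. Without one, 2 of 2 single-copy genes (Vha13 and VhaSFD) and 2 of 18 paralog-group genes (Vha16-1 and VhaPPA1-1) did. The strongest summit of Vha13 was nevertheless shared, lying 230 bp from the start of Nup58 and 410 bp from that of Vha13.

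Summits at paralog-group genes can be set beside those above. The same rule was used to cut the stretches, VhaPPA1-1 lying at chr3R:14904116-14904216 (minus strand), VhaM9.7-a at chr3L:4262546-4262646 (plus) and Vha16-5 at chr2L:10737279-10737344 (minus). They are shown for a summit with no neighbour, for one midway between a pair of starts and for one at the neighbour's start, and hold no match to the 5 sequences searched, so none is in capitals.
VhaPPA1-1: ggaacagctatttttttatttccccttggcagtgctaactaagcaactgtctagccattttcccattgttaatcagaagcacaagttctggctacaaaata
VhaM9.7-a: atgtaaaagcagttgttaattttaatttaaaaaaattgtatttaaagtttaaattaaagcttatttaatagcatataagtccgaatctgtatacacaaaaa
Vha16-5: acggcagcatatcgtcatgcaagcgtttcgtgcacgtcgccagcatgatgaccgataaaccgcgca
Over the 101 bases centred on the strongest summit, GC content was 38.6% in the median of the 13 members (17.8% at Vha13 to 54.5% at Vha44), beside 31.7% for all protein-coding genes with an IDR summit (8.91% to 69.3%). It was below 30% in 4 of 13 members (Vha26, Vha13, VhaM9.7-a and VhaM9.7-b), beside 44.1% of all such genes.

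Short sequences linked with promoters were searched by exact match on either strand, in the 300 bases from 250 bp before each annotated start. CACGTG is the core bound by the factor Mitf, which in flies activates V-ATPase genes. It was present at 5 of 33 Vha genes (15.2%), beside 5.29% of all protein-coding genes. The 5 were Vha55, Vha44, Vha68-2, VhaM9.7-d and VhaAC45RP, of which the first 2 had an IDR summit, and it lay within 50 bp of an IDR summit at Vha44 alone. TATCGATA was present at Vha55 and VhaSFD (6.06%, beside 10.2%), both with an IDR summit. TCACACT, part of a core promoter element, was present at 4 Vha genes (12.1%, beside 11.3%), 3 of them with an IDR summit. CAGCTG was present at 11 of 33 (33.3%, beside 22.3%) and GAGAG, the GAGA factor's sequence, at 11 of 33 (33.3%, beside 36.2%). In each of these, 4 of the 11 genes had an IDR summit. Of all protein-coding genes with the sequence, 327 of 739 (CACGTG), 903 of 1419 (TATCGATA) and 865 of 1573 (TCACACT) had an IDR summit. For CAGCTG it was 1498 of 3110 and for GAGAG 1934 of 5062. Within 50 bp of an IDR promoter summit, CAGCTG was present at 2 of the 13 members (Vha44 and Vha36-1; 15.4%, beside 6.47% of the 4973 protein-coding genes with such a summit). CACGTG (Vha44), TATCGATA (VhaSFD) and GAGAG (Vha100-2) were each present at 1 member (7.69%), beside 1.17%, 6.66% and 9.61% of those genes in that order. TCACACT was present at 0 of the 13, beside 4.18%. With 13 members, 1 gene is 7.69%. A match is a description of the letters and not a binding site.

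The proteins of pairs of copies with an IDR summit at 1 gene only ranged from 30.5% to 85% identical. Identity is that of amino acids in a global alignment of the longest annotated proteins. Vha68-1 and Vha68-2, neither with an IDR summit, were 91.9% identical. Vha36-1, with an IDR summit, was 85% identical to Vha36-3, which had none. Vha16-1, with an IDR summit, was 84.1% identical to Vha16-3, which had none, and 67.9% identical to Vha16-5, which had one. Vha100-2 was 68% identical to Vha100-5, with no summit, and 61.7% identical to Vha100-1, with one. The e genes VhaM9.7-a and VhaM9.7-b, both with IDR summits, were 45.2% identical. Pairs with an IDR summit at 1 gene only could also be far less alike. The lowest values were 39.3% for D (Vha36-1 and Vha36-2) and 39.1% for a (Vha100-2 and Vha100-3). They were 54.8% for c (Vha16-4 and Vha16-5) and 30.5% for e (VhaM9.7-a and VhaM9.7-d).

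The share of genes with a promoter summit depended on the rule, for Vha genes as for all protein-coding genes, and not always by the same amount. Within 250 bp of a start it was 10 of 33 (30.3%, beside 30.1% of all), and within 1000 bp 14 of 33 (42.4%, beside 39.5%), which added Vha14-1. With the most upstream start of each gene alone it was 12 of 33 (36.4%, beside 33.3%), which lost Vha100-2. Among the 4894 strongest IDR peaks it was 9 of 33 (27.3%, beside 20.6%), with 4 of 5 single-copy genes and 5 of 28 of the others. In the whole pooled list of 30000 peaks it was 21 of 33 (63.6%, beside 49.2%), with 5 of 5 and 16 of 28, and every subunit had at least 1 gene with a summit. Among IDR peaks that overlap the strongest peaks of all 3 replicates it was 11 of 33 (33.3%, beside 26.4%), with 5 of 5 and 6 of 28. Among the 9789 strongest pooled peaks overlapping the strongest of 2 replicates, it was 13 of 33 with replicate 1 not required (beside 29.6%). It was 11 with replicate 2 not required (28.8%) and 11 with replicate 3 not required (27.9%). The pooled list was called from all 3 replicates, so these rules left no replicate out of the calling.

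**Figure D4:**
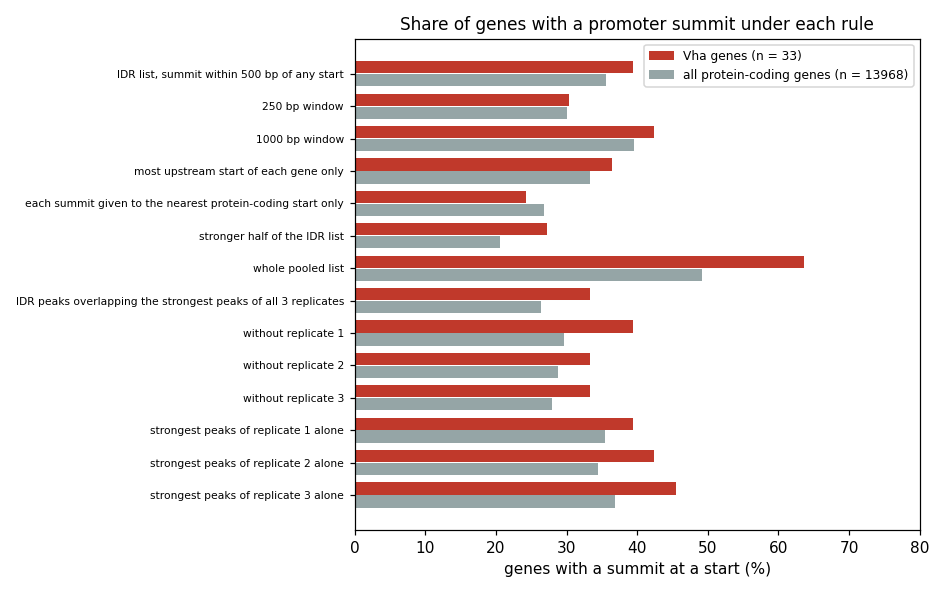
Share of genes with a summit at a start (x axis, %) under each rule for peaks and starts (y axis), for the 33 Vha genes (red, upper bar of each pair) and all 13968 protein-coding genes (grey, lower bar). Vha genes run from 24.2% to 63.6%; they are below all protein-coding genes where each summit goes to the nearest start only (24.2% and 26.8%) and above them in the other 13 rules.

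Among other multisubunit machines, 10 of 15 ATP synthase subunit genes (66.7%) and 27 of 48 proteasome subunit genes (56.2%) had an IDR promoter summit. The shares were 39.4% for Vha genes and 35.6% for all protein-coding genes. Replicate means among the strongest peaks were 42.4% ± 3.03 for Vha genes, 62.2% ± 3.85 for ATP synthase and 54.2% ± 3.61 for the proteasome (SD, n = 3). All protein-coding genes had 35.4%, 34.4% and 36.9% in replicates 1, 2 and 3. The lists differ in how many of their genes are copies, and the differences between lists were not tested.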

How the data were processed

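Peak lists from ChIP-seq of 3 biological replicates were used, on build dm6. Per the labels and the text notes deposited with them, a replicate's peaks came from that replicate's alignments and 1 control file. The pooled list was called from all 3 replicates, and the IDR list was derived from those lists. Which aligner, peak caller and IDR threshold were used is not given in the sources used here. Each peak's signal value, as deposited, is the enrichment from the caller. No source states whether it is scaled by depth, and ranks of this value were used to set the replicates side by side. The deposited −log10 q was 4.34 at every IDR peak. Replicate and pooled lists stop at 30000 peaks, and their weakest have little support (−log10 q down to 0.0776).

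Summits (peak start plus the deposited offset) were set against all transcript starts of 13968 protein-coding genes in Ensembl release 115. Subunits were assigned to genes from general knowledge of the family. Members, classes and lists were chosen with earlier results of these data known, so no list was tested. The protein table foreseen was not used, and proteins were translated from the annotated coding exons. Identity is over aligned residues (BLOSUM62, gap 10 and 0.5, no end penalty). Sequences are RefSeq's. Every member may be named, and other genes only as neighbours or by counts. The search for summits was checked on planted summits. Python 3.11.15, NumPy 2.4.6, pandas 2.3.3, Biopython 1.88 and matplotlib 3.10.9 were used.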

Additional observations from a re-analysis of the deposited data

How the results depend on the processing

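The count of Vha genes with a promoter summit (13) moved by over 1.5 times when each summit was given to the nearest start only (8) and in the whole pooled list (21). That of paralog-group genes (8) was 5 within 250 bp and among the 4894 strongest IDR peaks, 4 with the nearest start only and 16 in the whole pooled list. Not requiring overlap with 1 replicate in turn gave 11 to 13 Vha genes, 6 to 8 paralog-group genes, 9 to 10 subunits and 5 single-copy genes. The peaks filtered were still the pooled ones called from all 3 replicates, so no replicate was left out of the calling. The lists of single replicates were added after seeing the data. With the Ac45 pair counted as single-copy, 5 of 7 such genes and 8 of 26 others had a summit. The median rank over replicates moved beyond its SD for Vha14-1 within 1000 bp (320, against 11128) and for Vha100-2 with the most upstream start only (6562, against 298). No paired analysis was possible because there is 1 group. Depth is unknown, so a missing summit cannot be set against it.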
